A study of Homo sapiens with 9 samples.

Results

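The Notch pathway and the biliary transcription factor SOX9 were followed in 3 lines of the human hepatocellular carcinoma cell line Huh-7. The 10 genes were chosen by name, for their roles, but with earlier results of these data known. They are the ligand genes JAG1, JAG2 and DLL1, the receptor genes NOTCH1, NOTCH2 and NOTCH3, the target genes HES1 and HEY1, and the SOX factor genes SOX9 and SOX4. All 10 were among the 60664 Ensembl genes of the count table, and 9 of them were among the 17207 genes with enough counts to be tested. DLL1 was below the filter on low counts.

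The study removed a vault RNA, a short non-coding RNA transcribed by RNA polymerase III, from Huh-7 cells and compared the mRNA of the knockout lines with that of the parental cells. WT cells carried no deletion, 1-1 KO cells lacked vtRNA1-1, and 1-2 KO cells lacked vtRNA1-2. None of the lines was treated, and all were grown in serum-containing medium to high confluency before poly(A) RNA was sequenced from 3 libraries per line. WT and 1-1 KO cells came from another laboratory, and 1-2 KO cells were a single-cell clone that the study derived from WT with CRISPR/Cas9. Each knockout is therefore 1 line, and the p-values measure the spread between libraries of a line, not between independent clones. A difference between lines cannot be told apart from a difference between clones.

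Notch receptors are membrane proteins that are cut when a ligand of the Jagged or Delta-like family on a neighbouring cell pulls on them. The freed intracellular domain enters the nucleus, joins the DNA-binding protein RBPJ and a Mastermind coactivator, and turns on genes such as those of the HES and HEY repressor families. In the developing liver, JAG1 and NOTCH2 are known for directing hepatoblasts toward bile duct cells, and SOX9 marks the cells that take this path.

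Total counts were 32384469 to 40760513 per WT library, 40455537 to 41782387 per 1-1 KO library and 39464230 to 41000063 per 1-2 KO library. Levels are given as CPM, counts scaled to a common total, here with the TMM-normalized library size, a scaling that corrects for a few genes taking a large share of a library. Line means are given ± SD with n = 3 libraries. Differences are log2 fold changes ± SE from the quasi-likelihood test of edgeR. A gene was called at a p under 0.05 after Benjamini-Hochberg adjustment over the whole table. All 8 hepatocyte marker genes were expressed, with a summed level of 9790 to 10200 CPM in WT, 25300 to 26100 CPM in 1-1 KO and 16300 to 17800 CPM in 1-2 KO. In 1-1 KO 7 were higher and 0 lower than WT, with a median log2 fold change of 0.71. Of all tested genes, 32.5% were higher and 30.9% lower there, with a median of 0.01. In 1-2 KO 4 were higher and 3 lower, with a median of 0.09, beside 28.2% and 26.2% of all tested genes and their median of 0.02. The higher sum there came from AFP (1758 CPM in WT, 7415 in 1-2 KO) and ALB (2530 and 4736), named after their values were seen. The 5 endothelial markers summed to 7.41 to 8.04 CPM in WT, 6.42 to 7.22 CPM in 1-1 KO and 0.83 to 1.10 CPM in 1-2 KO, and the 4 leukocyte markers to at most 1.26 CPM in any library. The 5 fibroblast and stellate markers reached 166 to 178 CPM in WT, 218 to 228 CPM in 1-1 KO and 85.3 to 91.5 CPM in 1-2 KO, most of it LUM. Other markers of that list, named after their values were seen, went other ways. PDGFRB was 3.08-fold higher in 1-1 KO and 3.69-fold in 1-2 KO, and ACTA2 was 2.25-fold higher in 1-2 KO (edgeR adjusted p at most 6.10e-06). In 1-1 KO the mean level of ACTA2 was 34.4-fold lower, from 3, 2 and 5 counts. ACTA2 passed the filter through WT and 1-2 KO alone, which favoured a lower level in 1-1 KO, so that its test there is not given. The part of these markers in the results was not tested. The deleted RNAs lack poly(A) tails and were not measured: VTRNA1-1 had 1 count over the 9 libraries and VTRNA1-2 had 0.

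In 1-1 KO compared to WT, 8 of the 9 tested members were higher, 0 were lower and HEY1 was not called. Their median log2 fold change was 0.50, beside 0.01 over all tested genes. Differences between these lines were common, as 63.4% of all tested genes were called, 32.5% higher and 30.9% lower. In 1-2 KO compared to WT, 7 of the 9 were higher, SOX9 and SOX4 were lower, and the median was 0.92, beside 0.02 over all tested genes. Set against the median change of their neighbouring genes, a comparison given with each gene, SOX9 in 1-1 KO and SOX4 in 1-2 KO took the opposite sign. Here 54.4% of all tested genes were called, 28.2% higher and 26.2% lower. The counts of members called are to be read against these backgrounds. How many of all tested genes had no overlap between lines was not counted. Where a lack of overlap is given, it describes the libraries of that gene only. Both comparisons use the same 3 WT libraries, so they are not independent of each other. Between the knockouts, JAG1 and HEY1 were higher in 1-2 KO, NOTCH2, SOX9 and SOX4 were lower in it, and 4 members were not called, with a median of 0.01. This comparison called 65.3% of all tested genes, 33.1% higher and 32.2% lower in 1-2 KO.

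**Figure D1:**
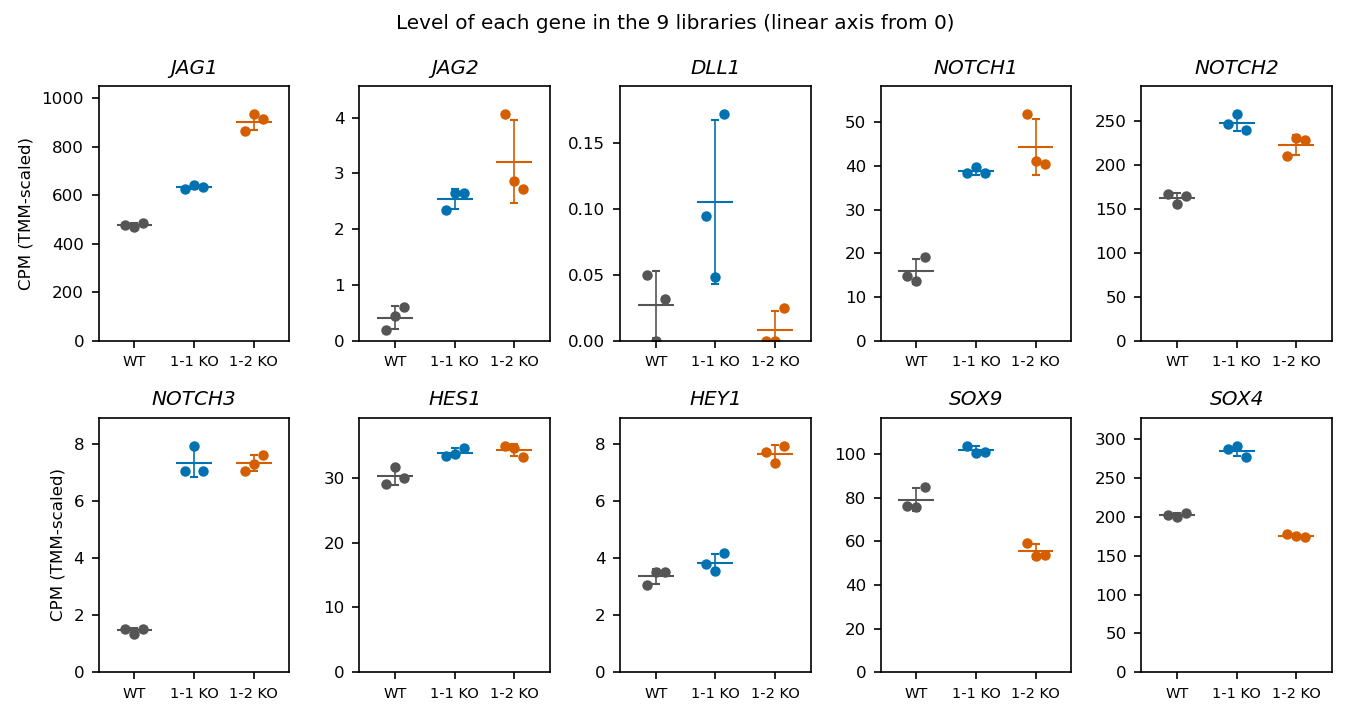
Level of each of the 10 genes (vertical axis, TMM-scaled CPM on a linear axis from 0) in the 3 libraries of WT and of each knockout line; points are libraries, horizontal lines the means and bars the SD. The ligands JAG1 and JAG2 and the 3 receptors lie higher in every knockout library than in any WT library, while SOX9 and SOX4 lie above WT in 1-1 KO and below WT in 1-2 KO, signs that turn for SOX9 in 1-1 KO and for SOX4 in 1-2 KO relative to neighbouring genes. How many of all tested genes separate in this way was not counted.

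Of the ligands, JAG1 was the most abundant and rose in both knockouts. JAG1 (ENSG00000101384; GRCh38 chromosome 20, 10637684 to 10673999, minus strand) encodes Jagged 1, the ligand whose loss causes Alagille syndrome with too few bile ducts. It was measured at 478, 467 and 485 CPM in the WT libraries, at 626, 640 and 634 CPM in 1-1 KO, and at 862.5, 932 and 912 CPM in 1-2 KO. The libraries of the 3 lines did not overlap, with WT lowest and 1-2 KO highest. The level was 1.33-fold higher in 1-1 KO than in WT (log2 fold change 0.41 ± 0.0363, edgeR adjusted p = 2.34e-07) and 1.89-fold higher in 1-2 KO (0.92 ± 0.0365, edgeR adjusted p = 7.04e-11). The knockouts also differed from each other, by 0.51 ± 0.0362 on the log2 scale (edgeR adjusted p = 1.84e-08).

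JAG2 (ENSG00000184916; chromosome 14, 105140982 to 105168824, minus strand), the other Jagged ligand, showed the largest fold change of the members at a low level. It was measured at 0.201, 0.453 and 0.602 CPM in WT, from 8, 17 and 19 counts. The level was 2.34, 2.65 and 2.65 CPM in 1-1 KO and 4.06, 2.86 and 2.72 CPM in 1-2 KO, where replicate 1 stood above the other two. Every knockout library lay above every WT library. JAG2 was 6.08-fold higher in 1-1 KO (2.64 ± 0.269, edgeR adjusted p = 9.96e-07) and 7.67-fold higher in 1-2 KO (2.98 ± 0.262, edgeR adjusted p = 3.03e-07). The knockouts did not differ by the test, with a log2 difference of 0.34 and a 95% interval from -0.07 to 0.75. DLL1 (ENSG00000198719; chromosome 6, 170282206 to 170306565, minus strand), a Delta-like ligand, had 2, 0 and 1 counts in WT, 4, 2 and 7 in 1-1 KO, and 0, 0 and 1 in 1-2 KO, and was not tested. At this depth a library with 0 counts allows a level of up to 0.095 CPM. In the alternative fit without a filter on low counts, DLL1 was called lower in 1-2 KO than in 1-1 KO (edgeR adjusted p = 0.0181) and in neither knockout against WT (adjusted p = 0.174 in 1-1 KO and 0.576 in 1-2 KO). It overlaps FAM120B on the other strand, which held 12309 counts over the 9 libraries. Whether counting used the strand is not given in the sources used here, so that reads of such a pair cannot be assigned with certainty.

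All 3 receptors were called higher in both knockouts. NOTCH1 (ENSG00000148400; chromosome 9, 136494433 to 136546048, minus strand) was measured at 14.8, 13.8 and 19.2 CPM in WT. In 1-1 KO its level was 38.3, 39.8 and 38.5 CPM, and in 1-2 KO it was 51.8, 41.1 and 40.35 CPM. WT replicate 3 and 1-2 KO replicate 1 stood above the other libraries of their lines. NOTCH1 was 2.45-fold higher in 1-1 KO (1.30 ± 0.111, edgeR adjusted p = 1.60e-07) and 2.79-fold higher in 1-2 KO (1.49 ± 0.111, edgeR adjusted p = 4.95e-08). Between the knockouts the log2 difference was 0.19, with a 95% interval from -0.03 to 0.41 and an edgeR adjusted p of 0.113. It fell to 0.07 without 1-2 KO replicate 1, whereas DESeq2 with the 2 lines alone gave an adjusted p of 0.0383.

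NOTCH2 (ENSG00000134250; chromosome 1, 119911553 to 120100779, minus strand), the receptor paired with JAG1 in bile duct formation, was measured at 167, 156 and 164 CPM in WT. In 1-1 KO the level was 246, 257 and 239 CPM, the highest of the lines, and in 1-2 KO it was 209.5, 230.8 and 227.6 CPM. It was 1.53-fold higher than WT in 1-1 KO (0.61 ± 0.0444, edgeR adjusted p = 3.04e-08) and 1.37-fold higher in 1-2 KO (0.46 ± 0.0444, edgeR adjusted p = 8.50e-07). 1-2 KO lay below 1-1 KO by the test, at -0.15 ± 0.0440 (edgeR adjusted p = 0.00692). The 50 nearest tested genes around NOTCH2 had a median log2 fold change of -0.22 in 1-2 KO and 0.02 in 1-1 KO. Relative to them the difference between the knockouts was 0.09 and not called (edgeR adjusted p = 0.103). The partial copies NOTCH2NLA, NOTCH2NLB and NOTCH2NLC had between 0 and 9 counts per library. How reads matching both NOTCH2 and a copy were counted is not given in the sources used here.

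NOTCH3 (ENSG00000074181; chromosome 19, 15159038 to 15200995, minus strand), a receptor best known from vascular smooth muscle, was the lowest receptor and the one with the largest fold change. It was measured at 1.53, 1.36 and 1.52 CPM in WT, 7.04, 7.92 and 7.03 CPM in 1-1 KO, and 7.05, 7.30 and 7.61 CPM in 1-2 KO. The knockout libraries overlapped each other and lay far above WT. NOTCH3 was 4.98-fold higher than WT in both knockouts, with a log2 fold change of 2.32 ± 0.104 in 1-1 KO (edgeR adjusted p = 2.22e-10) and 2.31 ± 0.104 in 1-2 KO (edgeR adjusted p = 2.70e-10). The interval of the difference between the knockouts ran from -0.18 to 0.18.

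Levels per kb of exon allow a rough comparison of different genes. The length joins all annotated exons of a gene, which can be more than the transcripts made in these cells contain. The 3 receptors summed to 11.1 ± 0.498 CPM per kb in WT, 18.7 ± 0.651 in 1-1 KO and 17.6 ± 0.223 in 1-2 KO. NOTCH2 made up 87.2 ± 1.67% of this sum in WT, 79.2 ± 0.277% in 1-1 KO and 75.4 ± 3.05% in 1-2 KO. The share of NOTCH1 was 11.4 ± 1.67% in WT, 16.6 ± 0.300% in 1-1 KO and 20.1 ± 3.14% in 1-2 KO. NOTCH3 made up 1.41 ± 0.0360%, 4.17 ± 0.157% and 4.41 ± 0.152% in the same order. NOTCH2 thus remained the leading receptor mRNA in each line. These shares were not tested.

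**Figure D2:**
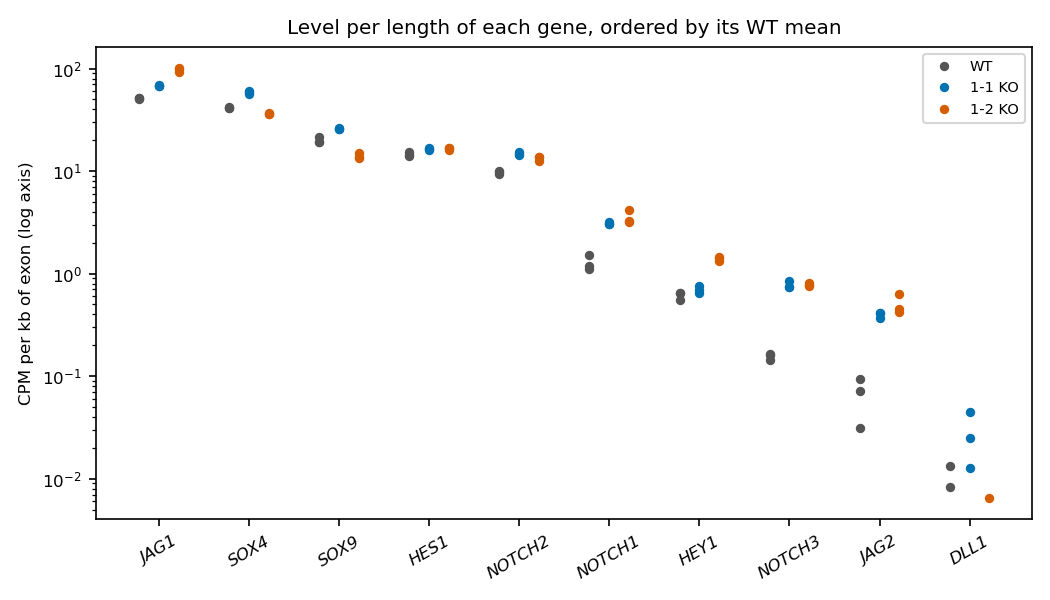
Level per kb of exon (vertical log axis, CPM per kb) of each gene in each library of the 3 lines, ordered by the WT mean; libraries with 0 counts cannot be drawn on a log axis and are left out. JAG1 is highest in every line, at 51.3 CPM per kb in WT, and DLL1 is lowest.

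In WT, the order of the levels per kb was JAG1 (51.3 ± 0.965 CPM per kb), SOX4 (41.5 ± 0.528), SOX9 (20.1 ± 1.31), HES1 (14.7 ± 0.656), NOTCH2 (9.69 ± 0.339), NOTCH1 (1.27 ± 0.230), HEY1 (0.614 ± 0.0477), NOTCH3 (0.156 ± 0.0103) and JAG2 (0.0655 ± 0.0317), with DLL1 last. Neighbours in this order differed by more than their SDs. In 1-1 KO the order at the top was the same, from JAG1 (68.1 ± 0.795) through SOX4 (58.5 ± 1.49) and SOX9 (25.8 ± 0.476) to HES1 (16.4 ± 0.326) and NOTCH2 (14.8 ± 0.540), whereas NOTCH3 (0.779 ± 0.0545) and HEY1 (0.700 ± 0.0565) lay within their SDs of each other. In 1-2 KO, JAG1 reached 97.0 ± 3.86 CPM per kb and SOX4 was next at 36.1 ± 0.445. SOX9 (14.1 ± 0.876) fell below HES1 (16.6 ± 0.443) there and lay within its SD of NOTCH2 (13.3 ± 0.686).

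The target HES1 (ENSG00000114315; chromosome 3, 194136148 to 194138732, plus strand), a transcriptional repressor, moved much less than the ligands and receptors. It was measured at 29.1, 31.7 and 29.9 CPM in WT, 33.35, 33.6 and 34.6 CPM in 1-1 KO, and 34.9, 34.5 and 33.2 CPM in 1-2 KO. All knockout libraries lay above all WT libraries, and the knockouts overlapped each other. HES1 rose 1.12-fold in 1-1 KO (0.16 ± 0.0479, edgeR adjusted p = 0.00829) and 1.13-fold in 1-2 KO (0.18 ± 0.0479, edgeR adjusted p = 0.00591). Between the knockouts the 95% interval ran from -0.09 to 0.12. By the root mean square difference over the 9 libraries of log2 CPM centred on WT, the genes most like HES1 among 8915 protein-coding genes were MFSD4B (0.0279), MARK3 (0.0358) and PPP4R3A (0.0362).

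HEY1 (ENSG00000164683), a repressor of the related HEY family, separated the knockouts. It was measured at 3.06, 3.52 and 3.52 CPM in WT, 3.80, 3.55 and 4.17 CPM in 1-1 KO, and 7.71, 7.33 and 7.93 CPM in 1-2 KO. The 1-2 KO libraries lay well above all others, while the lowest 1-1 KO library lay just above the highest WT library. HEY1 was 2.27-fold higher in 1-2 KO than in WT (1.19 ± 0.0972, edgeR adjusted p = 1.41e-07) and was not called in 1-1 KO, where its log2 fold change was 0.19 with a 95% interval from -0.03 to 0.41 (edgeR adjusted p = 0.119). The knockouts differed by 1.00 ± 0.0941 on the log2 scale (edgeR adjusted p = 3.78e-07). The 50 genes around HEY1 had a median of 0.41 in 1-1 KO, and relative to them HEY1 was at -0.22 there, again not called (edgeR adjusted p = 0.0857).

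RBPJ binds DNA at sites built on the letters TGGGAA. RefSeq promoter sequences (GRCh38.p14) were found for 7 of the 10 members, and not for DLL1, HEY1 and SOX9. In the 250 bases before the start, TGGGAA or its reverse complement TTCCCA was found in 2 of these 7, HES1 and SOX4, on the gene's own strand in each. The stretches are shown because HES1 is the classical Notch target and SOX4 the only other member with a match, with the TGGGAA matches in capitals and both written 5′ to 3′ on the plus strand. HES1 is from chr3:194136034-194136113 and SOX4 from chr6:21593611-21593676.
HES1: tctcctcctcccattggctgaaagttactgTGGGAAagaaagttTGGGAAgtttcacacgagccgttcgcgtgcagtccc
SOX4: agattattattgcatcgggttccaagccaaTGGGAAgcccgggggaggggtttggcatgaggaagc
The HES1 matches begin 84 and 70 bases before the start and the SOX4 match 110 bases before it. Of 35116 promoters of this length, 20.8% held at least 1 match on either strand and 2.9% held 2 or more. A match is a description of the letters, not a measured binding site. Sites that depart from these letters were not searched, so that the capitals need not mark every RBPJ site of a stretch.

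SOX9 and SOX4 were the members whose direction differed between the knockouts. SOX9 (ENSG00000125398; chromosome 17, 72121020 to 72126416, plus strand), a transcription factor of bile duct and progenitor cells, was measured at 76.2, 75.9 and 85.0 CPM in WT. Its level was 103.7, 100.3 and 100.7 CPM in 1-1 KO and 59.45, 53.25 and 53.8 CPM in 1-2 KO. The 3 lines did not overlap, with 1-1 KO highest and 1-2 KO lowest. SOX9 was 1.29-fold higher in 1-1 KO than in WT (0.36 ± 0.0506, edgeR adjusted p = 2.20e-05) and 1.42-fold lower in 1-2 KO (-0.51 ± 0.0518, edgeR adjusted p = 1.30e-06). The direct difference between 1-2 KO and 1-1 KO was -0.87 ± 0.0513 (edgeR adjusted p = 2.52e-09). The antisense gene SOX9-AS1 held 294 counts over the 9 libraries, against 27977 for SOX9.

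The 1-1 KO result moved with the genes around SOX9. The 50 nearest tested genes had a median log2 fold change of 0.57 in 1-1 KO, above the 0.36 of SOX9 itself, and of 0.01 in 1-2 KO. Relative to these neighbours, SOX9 was lower than WT in 1-1 KO as well, at -0.21 (edgeR adjusted p = 0.00287), and at -0.52 in 1-2 KO (edgeR adjusted p = 1.43e-06). The difference between the knockouts relative to the neighbours was -0.31 (edgeR adjusted p = 1.27e-04). The genes whose pattern over the 9 libraries was most like SOX9 were EPHA5 (root mean square log2 difference 0.0402), BSG (0.0422) and MARCKSL1 (0.0473).

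SOX4 (ENSG00000124766; chromosome 6, 21593751 to 21598619, plus strand), a progenitor factor that acts with SOX9 in bile duct formation, was measured at 202, 199.5 and 205 CPM in WT. Its level was 287, 291 and 277 CPM in 1-1 KO and 178, 175.5 and 174 CPM in 1-2 KO, again with no overlap between lines. SOX4 was 1.41-fold higher in 1-1 KO (0.50 ± 0.0328, edgeR adjusted p = 1.14e-08) and 1.15-fold lower in 1-2 KO (-0.20 ± 0.0330, edgeR adjusted p = 1.35e-04), and the knockouts differed by -0.70 ± 0.0329 (edgeR adjusted p = 2.51e-10). Here the neighbouring genes were lower in 1-2 KO, with a median of -0.38, and at 0.12 in 1-1 KO. Relative to them SOX4 was higher than WT in 1-2 KO, at 0.18 (edgeR adjusted p = 3.94e-04), and still higher in 1-1 KO, at 0.38 (edgeR adjusted p = 2.74e-07). The difference between the knockouts became -0.20 (edgeR adjusted p = 1.30e-04).

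**Figure D3:**
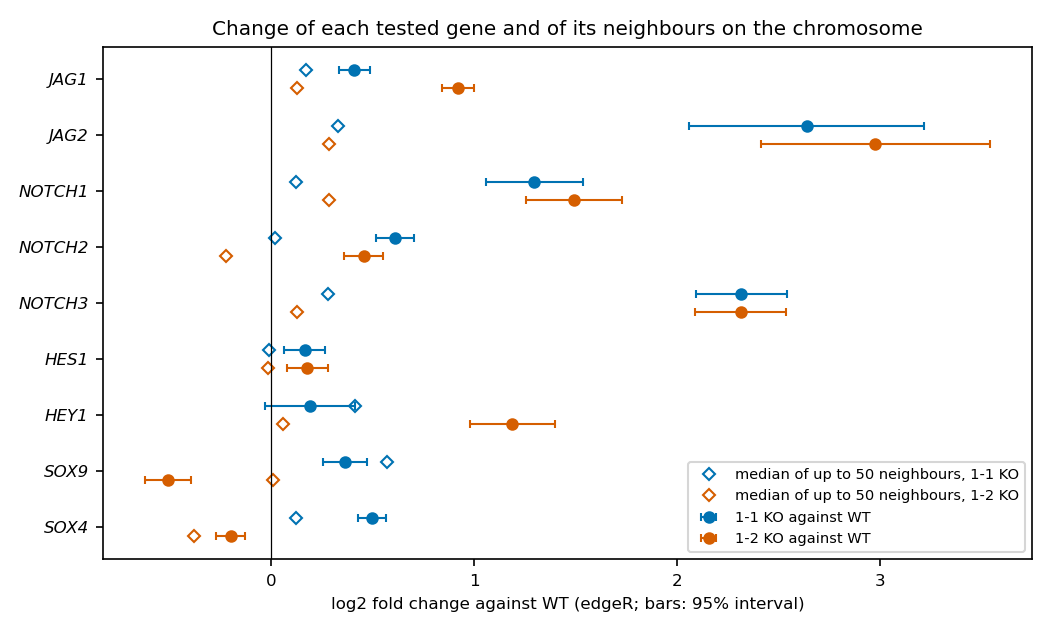
Log2 fold change against WT (horizontal axis) of the 9 tested genes in each knockout line, with bars for the 95% interval of edgeR's estimate, and open diamonds for the median of up to 50 neighbouring tested genes on the same chromosome. JAG2, NOTCH1 and NOTCH3 lie far from their neighbours, whereas the diamond for SOX9 in 1-1 KO, at 0.57, lies beyond the gene and that for SOX4 in 1-2 KO, at -0.38, lies below it.

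For the other Notch genes among the members, apart from HEY1 in 1-1 KO, the neighbours shifted less than the gene. JAG1 was at 0.24 in 1-1 KO and 0.79 in 1-2 KO relative to its neighbours, NOTCH2 at 0.59 and 0.68, and HES1 at 0.17 and 0.20, each still called. NOTCH1 (1.17 and 1.21), NOTCH3 (2.04 and 2.19) and JAG2 (2.31 and 2.70) also kept their call.

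A wider list of 57 Notch pathway genes was written by role, and 52 of them were tested, of which 5 did not pass the filter through every line. In 1-1 KO, 29 were higher and 14 lower than WT, beside 32.5% and 30.9% of all tested genes, with a median log2 fold change of 0.28. In 1-2 KO, 25 were higher and 7 lower, beside 28.2% and 26.2%, with a median of 0.16. DLK1, DLL3, HES2 and HES7 are among the 29, and DLL3 and DTX1 among the 25. None of them passed the filter through WT, which favoured these calls. With genes at the floor in 1 line set to their bound and those at the floor in both left out, the medians were 0.28 and 0.17. These counts are read against the backgrounds of called genes given above, and the medians against those of all tested genes, 0.01 and 0.02. Between the knockouts, 16 were higher and 18 lower in 1-2 KO, beside 33.1% and 32.2% of all tested genes. DTX1, which passed the filter through 1-2 KO alone, is among the 16. DLK1, HES2 and HES7, which passed it through 1-1 KO alone, are among the 18.

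**Figure D4:**
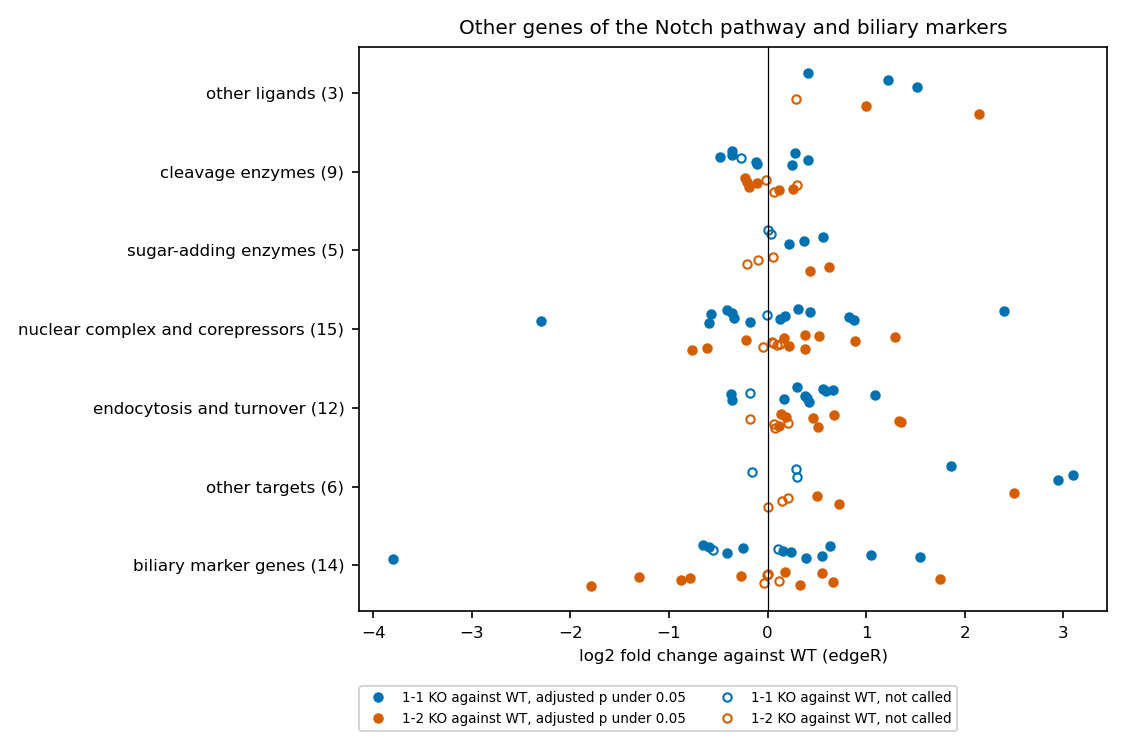
Log2 fold change against WT (horizontal axis, edgeR) of the tested genes of the wider Notch list and of the biliary markers, grouped by role with the number drawn in parentheses; filled points have an adjusted p under 0.05 and open points do not. DLK1 and DTX1, with 0 counts in WT, are left out. The other ligands drawn lie at or above 0.29 in both knockouts, but DLK2 is not called in 1-2 KO. DLL3 passed the filter through the knockout libraries alone, which favoured a higher level there. HES2, HES7 and KRT7 are also drawn and did not pass the filter through every line. The nuclear genes lie on both sides of 0.

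Of the other ligands, 4 were higher in 1-1 KO and 2 in 1-2 KO, of 4 tested. Over all tested genes, 32.5% and 28.2% were called higher. DLL3 is in both counts and DLK1 in that of 1-1 KO, and these 2 did not pass the filter through every line. DLL4, a Delta-like ligand best known from blood vessel sprouting, was measured at 3.69, 4.16 and 4.40 CPM in WT, 9.14, 8.87 and 10.4 CPM in 1-1 KO, and 8.59, 7.60 and 8.26 CPM in 1-2 KO. Both knockouts lay above WT without overlap, by 1.22 ± 0.0966 in 1-1 KO (edgeR adjusted p = 7.41e-08) and 1.00 ± 0.0977 in 1-2 KO (edgeR adjusted p = 8.66e-07). Of the 5 endothelial markers, KDR had 0 counts in every library and only PECAM1 was tested. PECAM1 was not called in 1-1 KO (-0.18, edgeR adjusted p = 0.0965) and was 9.02-fold lower in 1-2 KO (edgeR adjusted p = 5.05e-11), where DLL4 was higher. DLL3, a Delta-like protein that acts inside the cell, had 8, 2 and 3 counts in WT, 11, 12 and 20 in 1-1 KO, and 40, 15 and 11 in 1-2 KO. DLL3 passed the filter through the knockout libraries alone, which favoured a higher level there, so that its tests against WT are not given. The non-canonical ligand gene DLK1, which passed it through 1-1 KO alone, had 14, 16 and 16 counts in 1-1 KO and 0 in every WT and 1-2 KO library, at least 3.9-fold higher against a floor of 3 counts per library. DLK2, its relative, was at 0.41 in 1-1 KO (edgeR adjusted p = 0.0359; 0.35 and no longer called without WT replicate 1 or 3, 0.38 without 1-1 KO replicate 2 and 0.36 without 1-1 KO replicate 3) and 0.29 in 1-2 KO (edgeR adjusted p = 0.143). The receptor NOTCH4 had 3, 4 and 1 counts in WT, 8, 17 and 16 in 1-1 KO, and 4, 3 and 4 in 1-2 KO, and did not pass the filter. Without a filter it was called higher in 1-1 KO than in WT (edgeR adjusted p = 4.66e-04).

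Of the other targets, 6 of 7 were tested, and 3 were higher and 0 lower in each knockout. Over all tested genes, 32.5% were higher and 30.9% lower in 1-1 KO, and 28.2% and 26.2% in 1-2 KO. NRARP, which encodes a feedback inhibitor of the Notch complex, was measured at 0.979, 0.640 and 0.760 CPM in WT, 2.93, 2.89 and 2.89 CPM in 1-1 KO, and 4.82, 4.92 and 3.84 CPM in 1-2 KO. The lines did not overlap. It rose by 1.86 ± 0.167 in 1-1 KO (edgeR adjusted p = 2.71e-07) and by 2.50 ± 0.160 in 1-2 KO (edgeR adjusted p = 1.05e-08), and the knockouts differed by 0.64 ± 0.128 (edgeR adjusted p = 5.38e-04). HEYL, of the HEY family, rose in 1-2 KO (0.50 ± 0.126, edgeR adjusted p = 0.00403) and was at 0.29 in 1-1 KO (edgeR adjusted p = 0.0640). HES4 was called in 1-2 KO at 0.72 (edgeR adjusted p = 0.0334), with 3.92 CPM in replicate 1 against 2.11 and 1.77 CPM in the others. It was no longer called without that library (0.30), without WT replicate 1 (0.54) or without WT replicate 2 (0.76). HES2 and HES7 make up 2 of the 3 targets counted as higher in 1-1 KO, but they passed the filter on low counts through the 1-1 KO libraries alone, so that they had to differ and their tests are not given. HES2 had 24, 22 and 27 counts in 1-1 KO against 1 to 5 per library in the other lines, and HES7 16, 13 and 13 counts against 0 to 3. HEY2 was not called in either knockout, and HES5 had 1 count in all.

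Of 15 genes of the nuclear complex, 7 were higher and 7 lower in 1-1 KO, and 7 higher and 3 lower in 1-2 KO. Calls over all tested genes also went both ways, with 32.5% higher and 30.9% lower in 1-1 KO, and 28.2% and 26.2% in 1-2 KO. RBPJ, the DNA-binding partner of every Notch receptor, was at 210, 216 and 208 CPM in WT, 140, 142 and 140 CPM in 1-1 KO, and 119, 128 and 127 CPM in 1-2 KO. It was lower in both knockouts without overlap, at -0.59 ± 0.0355 (edgeR adjusted p = 4.22e-09) and -0.77 ± 0.0357 (edgeR adjusted p = 3.82e-10). The mRNA of this nuclear partner was thus lower in the same lines in which JAG1, JAG2 and the 3 receptors were higher. TLE2, a corepressor of the Groucho family, rose by 2.40 ± 0.142 in 1-1 KO (edgeR adjusted p = 3.63e-09) and by 1.29 ± 0.153 in 1-2 KO (edgeR adjusted p = 6.26e-06). The coactivator gene MAML1 was at 0.38 in 1-2 KO (edgeR adjusted p = 3.15e-06) and at -0.18 in 1-1 KO (edgeR adjusted p = 0.00194), the latter turning to 0.17 relative to its neighbouring genes.

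Among 9 cleavage enzymes, 3 were higher and 5 lower in 1-1 KO, and 2 higher and 4 lower in 1-2 KO. Of all tested genes, 63.4% were called in 1-1 KO and 54.4% in 1-2 KO. NCSTN, which encodes the gamma-secretase subunit nicastrin, was at -0.48 in 1-1 KO (edgeR adjusted p = 3.02e-07). FURIN, the protease that matures the receptors, was at 0.26 in 1-2 KO (edgeR adjusted p = 1.55e-04). Of 5 enzymes that add sugars to the receptors, 3 were higher in 1-1 KO and 2 in 1-2 KO. The shares of all tested genes called higher were 32.5% and 28.2%. POFUT1, which adds fucose, was at 0.22 and 0.43 (edgeR adjusted p = 3.43e-04 and 7.69e-07), and POGLUT1, which adds glucose, at 0.37 and 0.62 (edgeR adjusted p = 1.24e-04 and 1.06e-06). Relative to its neighbours POGLUT1 was at -0.08 in 1-1 KO and not called.

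Of 13 genes of ligand and receptor endocytosis and turnover, 9 were higher and 2 lower in 1-1 KO, and 9 higher and 0 lower in 1-2 KO. Over all tested genes, 32.5% were higher and 30.9% lower in 1-1 KO, and 28.2% and 26.2% in 1-2 KO. DTX1 is among the 9 in 1-2 KO, with 23, 11 and 18 counts there. It passed the filter through that line alone, so that it had to differ. DTX4, a Deltex ubiquitin ligase, rose in 1-1 KO (0.56 ± 0.0429, edgeR adjusted p = 4.73e-08) and in 1-2 KO (0.68 ± 0.0428, edgeR adjusted p = 9.69e-09). Its relative DTX3L was at 0.67 ± 0.0521 in 1-1 KO (edgeR adjusted p = 6.36e-08) and at 0.19 ± 0.0529 in 1-2 KO (edgeR adjusted p = 0.00833). NEURL1B, a ubiquitin ligase that drives endocytosis of ligands, was at 19.0, 17.8 and 17.4 CPM in WT, 13.6, 14.1 and 14.1 CPM in 1-1 KO, and 46.0, 46.6 and 43.9 CPM in 1-2 KO. It was 2.52-fold higher than WT in 1-2 KO (1.33 ± 0.0519, edgeR adjusted p = 5.81e-11) and at -0.37 in 1-1 KO (edgeR adjusted p = 3.79e-05), where it was no longer called relative to its neighbours (-0.11).

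The biliary marker genes did not move as 1 group beside SOX9. Of 16, 14 were tested, with 7 higher and 5 lower in 1-1 KO (median 0.13), and 5 higher and 5 lower in 1-2 KO (median -0.0006), beside 63.4% and 54.4% of all tested genes called. KRT7 is among the 5 lower in each knockout. It passed the filter through WT alone, so that it had to be lower in both. Their summed level was 2080 to 2100 CPM in WT, 2080 to 2090 CPM in 1-1 KO and 2000 to 2050 CPM in 1-2 KO. In bulk samples, fewer cells of a type and less RNA per cell cannot be told apart. EPCAM, an adhesion protein of bile duct and progenitor cells, was at 36.0, 35.7 and 34.6 CPM in WT, 104.4, 102.7 and 103.8 CPM in 1-1 KO, and 34.1, 34.1 and 35.8 CPM in 1-2 KO. It rose 2.92-fold in 1-1 KO (1.55 ± 0.0373, edgeR adjusted p = 5.07e-13) and was not called in 1-2 KO. SPP1, which encodes osteopontin, was at 62.3, 68.7 and 64.6 CPM in WT and at 207, 221 and 228 CPM in 1-2 KO, a rise of 1.75 ± 0.0448 (edgeR adjusted p = 1.00e-12). In 1-1 KO it was at 0.24 (edgeR adjusted p = 3.72e-04), and at 0.01 relative to its neighbours.

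ANXA4, an annexin of epithelial cells, rose in both knockouts, by 0.63 ± 0.0335 in 1-1 KO (edgeR adjusted p = 1.16e-09) and 0.55 ± 0.0335 in 1-2 KO (edgeR adjusted p = 6.36e-09). PROM1, a membrane protein of progenitor cells, was at -0.41 in 1-1 KO (edgeR adjusted p = 3.59e-07), but not called relative to its neighbours, and fell by 0.88 in 1-2 KO (edgeR adjusted p = 1.89e-10). The bile duct keratins KRT19 and KRT7 were named after their values were seen. KRT19 was at 208, 198 and 233 CPM in WT, 283, 275 and 278 CPM in 1-1 KO, and 334, 233 and 232 CPM in 1-2 KO, so that 1-2 KO overlapped WT. It was called in 1-1 KO (0.39 ± 0.108, edgeR adjusted p = 0.00603) and in 1-2 KO (0.33 ± 0.108, edgeR adjusted p = 0.0197), where the value was 0.13 without 1-2 KO replicate 1 and the call was lost without WT replicate 1 (0.31) or WT replicate 2 (0.28). KRT7 had 11, 19 and 11 counts in WT, 1 in each 1-1 KO library and 3, 6 and 4 in 1-2 KO, and passed the filter through WT alone.

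Of 17 other SOX genes, 8 were tested, with 2 higher and 1 lower in 1-1 KO and 6 higher and 1 lower in 1-2 KO, beside 63.4% and 54.4% of all tested genes called in either direction. The 3 of 8 called in 1-1 KO are a smaller share than that background. Of the 8, 2 passed the filter through the 1-2 KO libraries alone, SOX2 and SOX18. Both had to be higher there and are among the 6. SOX2, a factor of stem cells, had 7, 8 and 8 counts in WT, 2, 2 and 0 in 1-1 KO, and 339, 266 and 243 in 1-2 KO. Its level in 1-2 KO was 32.3-fold that in WT. It passed the filter through the 1-2 KO libraries alone, so that its test is not given. SOX12, of the same subgroup as SOX4, was at 15.9, 13.4 and 18.3 CPM in WT, 17.9, 18.8 and 16.9 CPM in 1-1 KO, and 41.7, 35.2 and 34.6 CPM in 1-2 KO. It rose by 1.23 ± 0.0983 in 1-2 KO (edgeR adjusted p = 1.05e-07), the line in which SOX4 was lower, and was not called in 1-1 KO (edgeR adjusted p = 0.148). SOX6 shared the signs of SOX9, at 0.39 in 1-1 KO (edgeR adjusted p = 4.54e-06) and -0.40 in 1-2 KO (edgeR adjusted p = 7.08e-06).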

How the data were processed

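Poly(A) RNA of Huh-7 WT cells and both knockout lines was sequenced with a stranded kit, in 3 libraries per line. Alignment by the authors used STAR on hg38, and their gene counts from featureCounts were deposited raw. The settings for strand and for reads matching several places are not given in the sources used here. Positions and exon lengths came from GENCODE 44, where 60463 of 60664 gene identifiers matched.

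Genes were kept by filterByExpr (minimum count 10, minimum total 15), scaled by TMM and tested with edgeR 4.0.16 in R 4.3.3, with all 9 libraries in 1 fit without a replicate block. P-values were adjusted by Benjamini-Hochberg over 17207 genes. The biological coefficient of variation was 5.55%. DESeq2 1.42.0 was an alternative, as were other scalings, filters and fits, an adjusted p under 0.01, each gene's neighbouring genes as an offset (25 tested genes on each side) and leaving out each library. The fits were tested on simulated counts.

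The 10 members, the lists and the tests were chosen with earlier results of these data known. Named genes were the members, every tested gene among other ligands, receptors and targets, the 2 genes of each further group with the smallest adjusted p in each knockout, and the 3 genes most like SOX9 and HES1 (mean of at least 10 CPM, log2 of CPM plus 0.5). A gene that this rule selects is not reported here. The floor was 3 counts in each library of a line. Floors cover counting error only.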

Additional observations from a re-analysis of the deposited data

How the results depend on the processing

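Over the alternatives other than leaving out a library, 235 of 240 values of the members kept their direction and their side of the threshold. The exceptions were the neighbouring genes as an offset, which turned SOX9 in 1-1 KO to -0.21, SOX4 in 1-2 KO to 0.18 and NOTCH2 between the knockouts to 0.09, and NOTCH1 between the knockouts, which became called with DESeq2 on the 2 lines alone (0.19) and with low counts left unfiltered (0.20). The cause was not tested. Leaving out each library in turn left 243 of 243 values of the members as they were. With 10 counts required in each library, JAG2 was not tested. The number of other SOX genes called moved from 3 to 5 in 1-1 KO with the neighbouring genes as an offset, and from 7 to 4 in 1-2 KO with that stricter filter, which tests fewer genes.

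For libraries of different lines with the same replicate number, the correlations of their deviations were between -0.301 and 0.130, and 1 of 9 was over 0.1. No pairing by number was seen in these values, which cannot exclude one. Libraries with different numbers ranged from -0.271 to 0.394, the highest for WT replicate 3 with 1-2 KO replicate 1. Whether such libraries shared a technical deviation was not tested. With the replicate block, 8, 9 and 5 members were called in 1-1 KO, in 1-2 KO and between the knockouts, as without it, and 10596, 8985 and 10923 of all tested genes. For the genes of the other lists, 1823 of 1958 values stayed the same and 22 turned direction, all with the neighbouring genes as an offset. DLL1 and NOTCH4 entered the test only without a filter on low counts, where 7 members were called between the knockouts, NOTCH1 and DLL1 among them.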
